A study of Mus musculus with 4 samples.

Results

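Cytosolic ribosomal protein genes encode the proteins that, with ribosomal RNA, build the small subunit (Rps genes) and the large subunit (Rpl genes) of the cytoplasmic ribosome. They were chosen by symbol. Every symbol made of Rpl or Rps and a digit was taken, and Rplp0, Rplp1, Rplp2 and Rpsa were added, while names that mark pseudogenes and the Rps6k kinases were left out. The rule found 86 genes among the 31053 features of the files, and all 86 had at least 1 unique molecular identifier (UMI, the tag that marks 1 captured RNA molecule), as had 20325 of all features. One of the 86, Rps19bp1, encodes a protein that binds Rps19 and is not itself a ribosomal protein. Conversely, genes such as Fau and Rack1 encode proteins of the ribosome under symbols that the rule does not take.

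The cells were bone marrow mononuclear cells, flushed from femur and tibia of C57BL/6 mice and collected at the interface of a density gradient. The TLR9-/- mice lack Toll-like receptor 9, an endosomal receptor for DNA rich in unmethylated CpG, in all cells, and the WT mice carry intact Tlr9. The genotypes were bred in separate cages, no treatment was given, and the ages are not stated in the labels. Each genotype had 2 libraries, 1 per mouse, made with a droplet kit that reads transcripts from the 5′ end, and each of 2 experiments held 1 mouse of each genotype, although the library numbers 1 and 2 are not stated to mark the experiments. After filters on cells, 39167 of 40545 barcodes were kept, with 31210188 to 63958243 UMIs per library. The TLR9-/- libraries were the deeper ones, with a median of 2545 and 3618 UMIs per cell, against 1759 and 2287 in the WT libraries. In counts per 1000000 UMIs (CPM), Tlr9 itself was at 0.817 and 0.7505 in TLR9-/- and at 3.84 and 2.34 in WT. Each pair of libraries shared 112 to 185 cell barcodes, at most 1.75% of the smaller library. Clusters were made without the ribosomal protein genes and named from marker lists, which gave 16 named classes and 1 unnamed cluster. A class name such as T cells therefore stands for cells like T cells by these markers. The cluster named HSPC (hematopoietic stem and progenitor cells) also had the megakaryocyte genes Pf4 and Itga2b among its leading genes.

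Ribosomal proteins are made in near equal numbers and in step with ribosomal RNA. Their mRNAs are short, abundant and stable. Most begin with a 5′ terminal oligopyrimidine (TOP) tract, a run of C and T after the cap, through which mTOR and the RNA-binding protein Larp1 control translation of the whole set. In bone marrow, demand for ribosomes is high in dividing progenitors and erythroid precursors, and ribosome synthesis declines as neutrophils and red cells mature. Loss of 1 copy of Rps19, Rpl5, Rpl11 or several other members causes Diamond-Blackfan anemia in humans.

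The sequence at the start of transcription is shown first, since a 5′ library reads the mRNAs from that end. RefSeq (GRCm38.p6) start windows were found for 66 of the 86 genes. Each window holds 20 bases before the annotated start and 10 bases from the start on, on the strand of the gene, and the longest unbroken run of C and T that overlaps the 10 bases on either side of the start is in capitals.
Rplp2: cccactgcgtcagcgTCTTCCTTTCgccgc
Rps9: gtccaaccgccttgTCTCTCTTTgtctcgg
Rpl12: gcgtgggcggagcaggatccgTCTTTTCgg
Rpl14: cggcagggcgggCCCTCTCTCTTCTCgctg
Rps27: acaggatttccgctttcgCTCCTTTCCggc
Rplp0: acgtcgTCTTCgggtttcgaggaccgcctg
Rpl41: gacgacacacgggccggCTCggaagtgacg
Rpl7l1: gcccggtgaggCTgcgcaagcgcagtagct
The first 5 show the run typical of the family, and the last 2 are members whose annotated window lacks it. These windows lie at chr7:141447631-141447660 (Rplp2), chr7:3704021-3704050 (Rps9), chr2:32961692-32961721 (Rpl12), chr9:120571497-120571526 (Rpl14), chr3:90213639-90213668 (Rps27, minus strand), chr5:115559447-115559476 (Rplp0), chr10:128549159-128549188 (Rpl41, minus strand) and chr17:46782647-46782676 (Rpl7l1, minus strand), and on the plus strand where none is named. A run of at least 8 bases was present in 29 of the 66 genes (43.9%), against 15.8% of the 27025 genes with a window. A run of at least 5 bases was present in 49 of them (74.2%), against 49.0% of all genes. The median longest run was 7 bases in the ribosomal protein genes and 4 bases in all genes. The motif CTTTC, read on the strand of the gene and searched within 10 bases of the start, was found in 12 of the 66 (18.2%) and in 2.91% of all genes. The runs describe the annotated starts only, and annotated and used starts can differ by some bases.

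Ribosomal protein genes took 48553282 of all UMIs, which is 26.0%. By library, their share was 26.6% and 25.7% in TLR9-/- and 24.7% and 26.6% in WT. The 3 members with the most UMIs were Rpl41, Rps24 and Rps20. Rpl41 encodes the smallest ribosomal protein and had 13087 and 9005 CPM in TLR9-/- and 12632 and 13004 CPM in WT, so that 1 TLR9-/- library stood below the other 3. Rps24, a small-subunit protein, had 7080, 6397, 7093 and 6594 CPM in the same order of libraries. Rps20 had 6014, 6739, 6230 and 7539 CPM, and neither gene separated the genotypes. At the low end, leaving aside the paralogs and Rps19bp1 (55.5 to 69.3 CPM), stood Rpl13a with 113 to 162 CPM, Rpl23a with 345 to 528 CPM and Rpl5 with 404 to 602 CPM. Reads of such genes can also match their processed pseudogenes, whose copies are many in the mouse genome. The 9 features with pseudogene names held 0.124% as many UMIs as the members. One of them, Rpl13a-ps1, had 50.9 and 66.8 CPM in the libraries numbered 1 but 2.97 and 4.33 CPM in those numbered 2. The part of read assignment between the copies in the UMIs counted for Rpl13a was not tested.

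The share differed far more between cell classes than between mice. HSPC held the highest share, with 36.6% and 35.9% in TLR9-/- and 35.4% and 39.1% in WT. T cells followed at 34.8%, 34.6%, 35.5% and 35.0%. Mature neutrophils, which carry granules and a compact nucleus and no longer divide, held the lowest, with 5.32%, 3.93%, 4.31% and 4.68%. Immature neutrophils were next, with 9.01%, 9.20%, 10.2% and 10.7%, and plasma cells stood at 15.8%, 11.02%, 14.99% and 14.7%. Plasma cells were few in the libraries numbered 2, with 225, 25, 158 and 24 cells in the same order. Their median share per cell was 20.4%, 11.2%, 18.1% and 11.2%, so their values differed by library number. In each of these 3 classes the highest library stayed under the lowest library of HSPC. The other named classes had means between 21.8% in mesenchymal cells and 31.0% in B cells. Among neighbours in the order, NK cells (27.3% to 29.2%), B-cell precursors (27.2% to 29.9%), granulocyte and monocyte precursors (27.2% to 29.1%) and plasmacytoid dendritic cells (26.5% to 27.7%) overlapped in their libraries. The classes are clusters of the same cells, so these differences are a description. The counting error was small, with a 95% Wilson interval of at most 0.367 percentage points on either side of a value, in macrophages of 1 WT library.

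**Figure D1:**
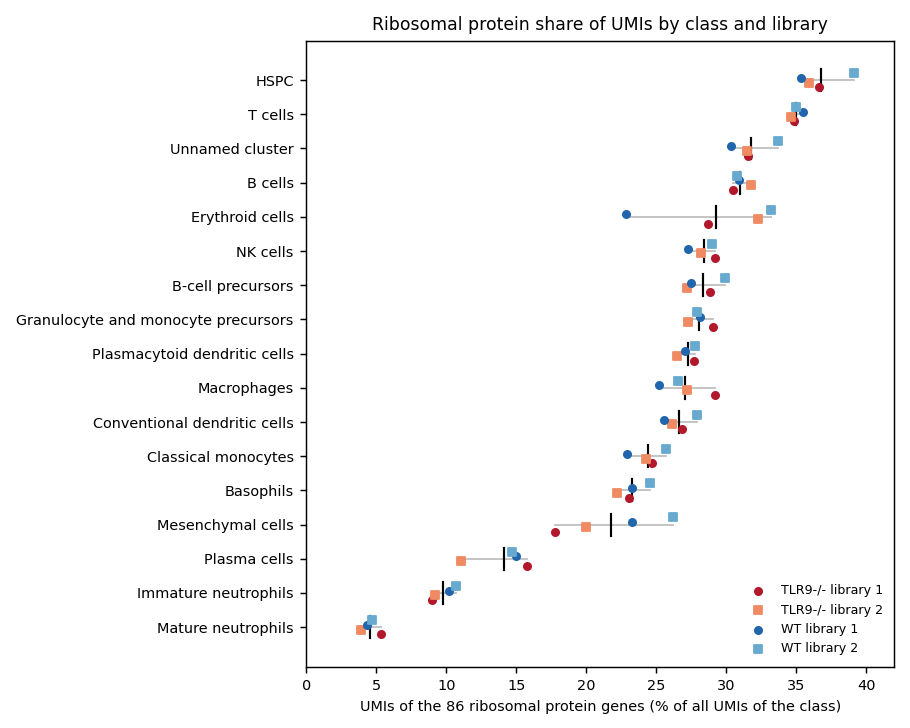
Ribosomal protein share of UMIs (x axis, % of all UMIs of the class) in 16 named classes and 1 unnamed cluster (y axis), with 1 point for each of the 4 libraries, a vertical bar at their mean and a grey line over their range. Both neutrophil classes and plasma cells lie apart at the low end, with means of 4.56%, 9.78% and 14.1%, and the erythroid libraries spread most widely among the abundant classes.

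Within the erythroid lineage the share was high in the early and low in the late cells. The erythroid cells comprised 4 clusters. The cluster led by Car1, an early erythroid carbonic anhydrase, had 36.7% and 35.7% in TLR9-/- and 34.5% and 37.0% in WT. The clusters led by Slc4a1, the anion exchanger of the red cell membrane, and by the globin gene Hba-a2 had means of 26.7% and 26.1%. In the Hba-a2 cluster, S100a9, S100a8 and Camp, which were also abundant in neutrophils, came next after Hbb-bs among the other genes. Whether its droplets held mixed cells was not tested. The cluster led by Tmcc2 and Hbb-bs had 5.30%, 7.41%, 5.23% and 11.6%. Haemoglobin genes took 0.196% of UMIs in the first of these clusters and 46.1% in the last. Per cell, the ribosomal protein UMIs were 6081 ± 1287 (SD, n = 4 libraries) in the Car1 cluster and 120 ± 41.7 in the Tmcc2 cluster. The erythroid class as a whole spanned 28.7%, 32.3%, 22.8% and 33.2%, and the library at 22.8%, WT 1, was also the one with the most haemoglobin, 16.8% of erythroid UMIs against 2.28% to 9.01% in the other 3. The part of the haemoglobin share in that value was not tested.

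Among the neutrophil clusters and their precursors, given in order of share, granulocyte and monocyte precursors led by Elane and Mpo, which encode enzymes of the first granules, had 29.1%, 27.2%, 28.1% and 27.9%. The cluster led by Ltf, Ly6g and Retnlg had a mean of 15.9%, that led by Ngp and Camp, genes of the secondary granules, 8.67%, that led by Retnlg and Il1b 6.16%, and that led by Mmp9 and Mmp8 3.94%. In UMIs per cell, the precursors had 4802 ± 1515 (SD, n = 4) and mature neutrophils 90.8 ± 18.5. Few other genes filled much of the neutrophil libraries. The 20 most abundant other genes were picked in each class by itself. With S100a9 and S100a8 first, they took 48.9% of UMIs in immature and 56.0% in mature neutrophils. In plasma cells they were led by Jchain and Igha, and in HSPC, where they took 7.48%, by Gm42418 and Fau. With the 20 genes of each class left out of its denominator, the ribosomal protein share was 19.1% in immature neutrophils, 10.3% in mature neutrophils, 20.4% in plasma cells and 39.7% in HSPC. The order of these 4 class means was the same on this scale, but some classes in the middle changed places. Granulocyte and monocyte precursors (33.7%) stood above NK cells (32.7%) and B-cell precursors (31.5%). Macrophages (30.97%) stood above plasmacytoid dendritic cells (30.63%). However, the libraries of immature neutrophils (17.8% to 20.9%) and plasma cells (19.7% to 21.4%) now overlapped.

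The B lineage had another order. The precursor cluster led by Myl4 and Bach2, in which cell cycle genes took 0.549% of UMIs, had a ribosomal protein share of 30.6% and 29.1% in TLR9-/- and 28.5% and 31.99% in WT. The mature B cell cluster led by Ighd and Fcer2a, with 0.0121% of UMIs in cell cycle genes, had 35.6%, 34.3%, 36.1% and 35.4%, above all 4 libraries of the former. Per cell, the Myl4 and Ighd clusters stood in the opposite order, with 1759 ribosomal protein UMIs in the Myl4 cluster and 512 in the Ighd cluster. The small precursors led by Rag1, the recombinase gene of antigen receptor rearrangement, had the lowest share of the lineage with a mean of 23.8%. Share and number of molecules per cell are thus separate quantities in these data, and depth differs between cells and libraries.

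**Figure D2:**
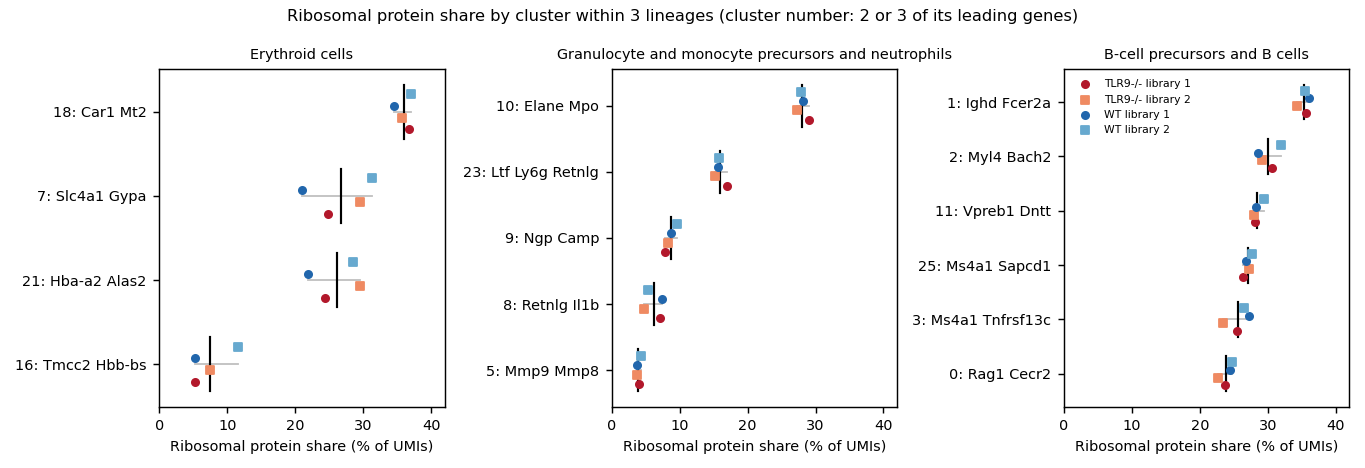
Ribosomal protein share of UMIs (x axis, %) in clusters of erythroid cells, of neutrophils with granulocyte and monocyte precursors, and of the B lineage. The y axis gives cluster number and leading genes, sorted by share and not by maturation. Each library has 1 point, a vertical bar marks the mean and a grey line the range. The share runs from 35.97% to 7.38% over the erythroid clusters. It is 28.1% in the granulocyte and monocyte precursors and 3.94% in the lowest neutrophil cluster, whereas in the B lineage the Ighd cluster stands highest at 35.4%.

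Lists of other genes of protein synthesis were set beside the members over the 16 named classes. The 19 translation factors and other genes with known TOP mRNAs, such as Eef1a1, Eef2 and Pabpc1, took 1.98% of UMIs in HSPC and 0.305% in mature neutrophils. The 40 genes of ribosome biogenesis, such as Ncl and Fbl of the nucleolus, took 0.452% and 0.0427%, and the 78 mitochondrial ribosomal protein genes 0.870% and 0.281%. Over the 64 points of class and library, the ribosomal protein share correlated with the TOP list at r = 0.963, with ribosome biogenesis at r = 0.937 and with mitochondrial ribosomal proteins at r = 0.894. These points share libraries, depth and denominators, so the values are a description and carry no test.

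Members were compared with each other by their spread over the 16 classes, the standard deviation (SD) of the mean log2 CPM. For 80 of the 86 genes, every library of every class had at least 10 UMIs. Their median spread was 0.84, and 62 of the 80 had r above 0.9 with the sum of the other members over class and library. Once each gene was taken as a share of the ribosomal protein UMIs, the median spread was 0.22. Most of the variation between classes was thus common to the family. The steadiest part of the makeup was Rpl11, a partner of Rpl5 and 5S ribosomal RNA in the complex that restrains Mdm2, with a spread of 0.06 within the family.

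Rpl12, Rpl3, Rpl10a, Rpl36a and Rpl14, all of the large subunit, had the widest spread of CPM, from 1.17 to 1.05, and all 5 were lowest in mature neutrophils. Rpl3, which reaches the peptidyl transferase center, had 3252, 3707, 2986 and 2674 CPM in HSPC and 183, 105, 76.1 and 100 CPM in mature neutrophils. Rpl12, a protein at the base of the stalk, had 928, 1658, 937 and 1365 CPM in T cells and 51.2, 40.6, 31.2 and 63.6 CPM in mature neutrophils. The libraries of the high and low class did not overlap for either gene.

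Rps27a, Rps9, Rpl9, Rpl35a and Rpl37 had the narrowest spread, from 0.48 to 0.66. Rps27a is made as a fusion with ubiquitin, and had 7275, 7764, 7515 and 7882 CPM in HSPC and 2533, 2249, 2366 and 2452 CPM in mature neutrophils. As a share of the ribosomal protein UMIs, Rps27a was at its highest in mature neutrophils. Rps9, a small-subunit protein near the mRNA entry, had 5606, 6734, 6665 and 7427 CPM in HSPC and 3100, 2896, 2294 and 3141 CPM in mature neutrophils. Rps9 was also at its highest within the family in mature neutrophils, where Rpl12 and Rpl3 were at their lowest. The makeup of the ribosomal protein UMIs in mature neutrophils thus differed from that of HSPC in each of the 4 libraries for these genes. Haemoglobin genes, which mature neutrophils should lack, took 0.00805% to 0.125% of their UMIs. This is only the haemoglobin part of free RNA in the droplets. The whole was not estimated, and its part in the makeup of mature neutrophils was not tested.

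Rpl31, Rps2 and Rps27 were high within the family in single classes. Rpl31, of the rim of the polypeptide exit tunnel, had 2255, 2131, 2108 and 2321 CPM in plasmacytoid dendritic cells, against 1028, 1007, 1022 and 1099 CPM in HSPC, which had the higher total share. Rps2 had 6950 and 9843 CPM in TLR9-/- and 5503 and 8935 CPM in WT in erythroid cells, where its share of the family was highest, and 550, 370, 260 and 412 CPM in mature neutrophils. Rps27 had 8916, 6843, 7535 and 7404 CPM in B cells and 3315, 2088, 2494 and 2986 CPM in erythroid cells. These genes were named after their values were seen.

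**Figure D3:**
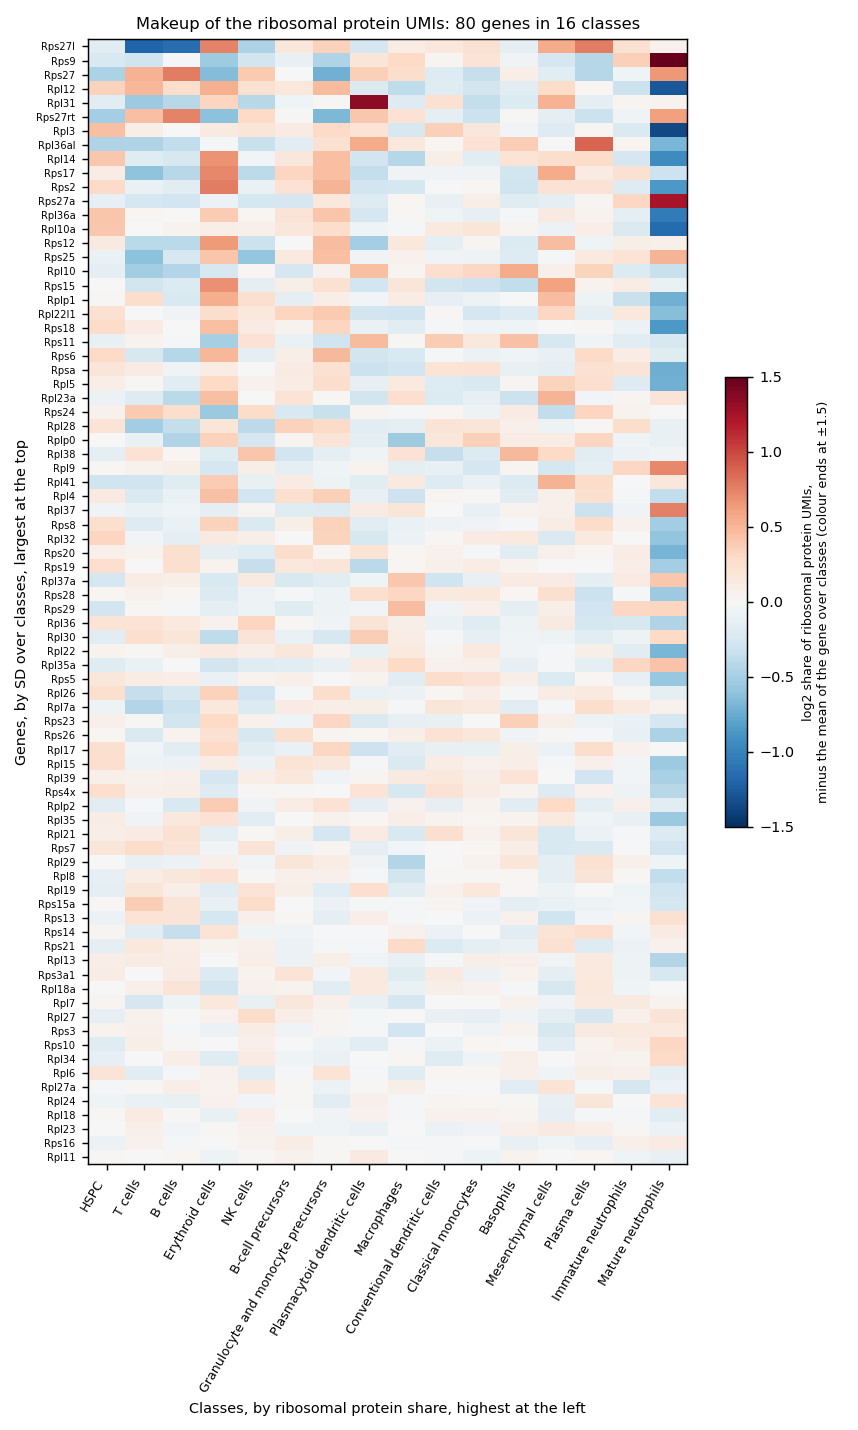
Makeup of the ribosomal protein UMIs, with 80 genes in rows and 16 named classes in columns. Colour gives the log2 share of each gene among ribosomal protein UMIs less its mean over classes, with red for above and blue for below, and mature neutrophils show Rps9 and Rps27a above and Rpl12 and Rpl3 below their means.

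Paralogs, here members with a symbol and coding sequence related to those of a partner gene, were read as shares of a gene and its partner. The Rps27 family shows why sequence matters here. Rps27 (chr3:90212725-90213615, minus strand, coding sequence in 4 exons) and Rps27rt (chr9:114982453-114982707, minus strand, 1 exon) have the same coding sequence over all 255 bases, whereas Rps27l (chr9:66946175-66949357, plus strand, 4 exons) differs at 61 of 255, shown in capitals.
Rps27: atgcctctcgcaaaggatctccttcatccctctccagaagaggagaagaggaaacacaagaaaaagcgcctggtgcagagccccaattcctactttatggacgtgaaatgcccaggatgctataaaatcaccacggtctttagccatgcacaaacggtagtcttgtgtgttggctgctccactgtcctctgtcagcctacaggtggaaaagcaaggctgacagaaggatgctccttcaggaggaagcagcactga
Rps27l: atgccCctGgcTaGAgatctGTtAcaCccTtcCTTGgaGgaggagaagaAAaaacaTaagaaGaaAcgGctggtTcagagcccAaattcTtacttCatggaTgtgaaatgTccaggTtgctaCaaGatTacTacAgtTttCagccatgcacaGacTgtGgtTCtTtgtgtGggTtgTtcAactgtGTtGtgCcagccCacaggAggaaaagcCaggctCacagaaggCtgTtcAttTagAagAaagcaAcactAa
Reads of Rps27l can be told apart from those of Rps27 along the coding sequence. Reads of Rps27rt can be told apart only outside it, so its counts are uncertain.

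Rps27l, a target of p53, was lowest in lymphocytes as a share of Rps27 and Rps27l. It made up 3.24%, 2.97%, 4.26% and 4.01% of the pair in B cells and 3.03%, 4.71%, 4.10% and 4.61% in T cells. In erythroid cells it made up 22.1%, 32.6%, 24.2% and 29.0%, and in plasma cells 22.2%, 24.8%, 24.9% and 25%. The lymphocyte libraries thus lay well below those of erythroid and plasma cells, and B-cell precursors stood between them with 11.8% to 17.2%. Both genes contributed, since Rps27l had 209 to 335 CPM in B cells and 794 to 1217 CPM in erythroid cells, while Rps27 moved the other way.

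Rps27rt showed no such order. Its share of Rps27 and Rps27rt averaged 4.79% to 5.73% in every class, and within each class it followed the library. Over all cells it was 5.48% and 3.80% in TLR9-/- and 7.43% and 3.75% in WT. The libraries numbered 1 were high and those numbered 2 low in both genotypes.

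Rpl36al and Rpl22l1 are expressed copies of Rpl36a and Rpl22, with 87.9% and 66.9% of coding bases in common with their partners. Rpl36al made up 13.3%, 8.26%, 15.3% and 8.68% of its pair in HSPC and 31.2%, 21.95%, 35.95% and 25.9% in plasmacytoid dendritic cells, so that the libraries of the classes did not overlap. Plasma cells had a similar mean of 29.0%. Rpl22l1 made up 45.3%, 35.8%, 37.8% and 31.95% of its pair in HSPC and 29.5%, 27.5%, 32.01% and 24.1% in macrophages, the class with the lowest mean. In each class the share of Rpl22l1 was lower in library 2 than in library 1 of the same genotype, and over all cells it was 41.8%, 33.9%, 38.8% and 30.7%.

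Rpl7l1 had only 53.8% of coding bases in common with Rpl7, so the 2 need not encode the same protein. It made up 3.01% to 4.20% of Rpl7l1 and Rpl7 over the 4 libraries, with class means from 1.77% in mesenchymal cells to 5.39% in mature neutrophils. The remaining paralogs are known from muscle or testis and had few UMIs. Rpl3l, the muscle form of Rpl3, had 88, 71, 86 and 88 UMIs. Mature neutrophils held 35, 27, 12 and 22 of these. They were 1033 of 10781, 1431 of 8918, 504 of 10573 and 1037 of 8895 cells, so Rpl3l was higher there than over all cells. Rpl3l reached 10.49% of Rpl3 and Rpl3l in mature neutrophils, where Rpl3 was also low, and at most 0.334% on average in every other class. Rpl39l, a testis form of Rpl39, had 114, 44, 11 and 20 UMIs, and Rpl10l had 0, 1, 0 and 5.

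**Figure D4:**
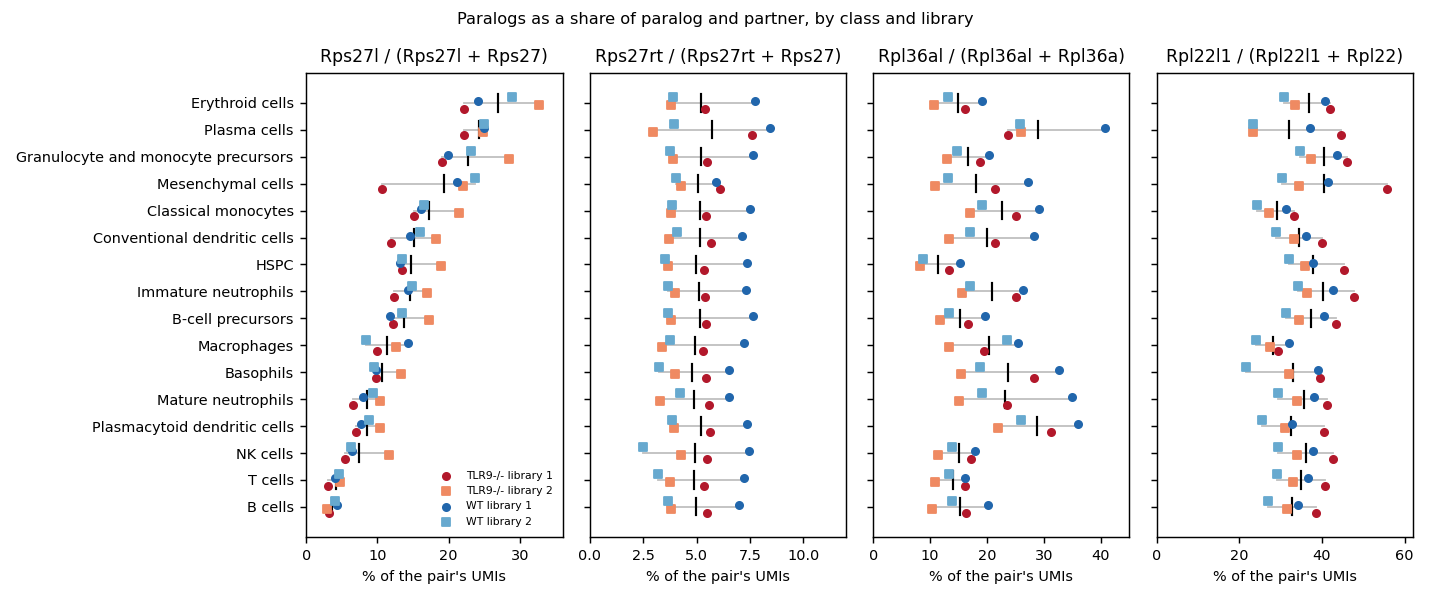
Paralogs as a share of the UMIs of paralog and partner (x axis, %) in the 16 named classes (y axis, ordered by Rps27l), with 1 point per library, a vertical bar at the mean and a grey line over the range. Rps27l rises from 3.62% in B cells to 27.0% in erythroid cells, Rps27rt keeps means of 4.79% to 5.73% with library WT 1 highest in every class but mesenchymal cells, and Rpl36al and Rpl22l1 lie lower in libraries 2 than in libraries 1 of the same genotype in most classes.

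Between genotypes, the share of UMIs was compared over libraries. With 2 libraries against 2, a two-sided exact permutation test cannot give a p under 0.33, so no difference of shares could pass the threshold. Over all cells the TLR9-/- mean was 0.494 percentage points above that of WT, with overlapping libraries (exact permutation p = 1). The share was lower in both TLR9-/- libraries than in both WT libraries in 4 classes. TLR9-/- minus WT was -1.35 points in immature neutrophils, -1.26 points in basophils, -0.523 points in T cells and -5.85 points in mesenchymal cells. It was higher in both TLR9-/- libraries in macrophages, by 2.29 points. Each of these had an exact permutation p = 0.33. The direction in T cells turned with the median share per cell, to 0.200 points, and in macrophages that median left a difference of 0.856 points. Leaving out 1 library moved some of these values by over 1.5 times, to -0.600 points in basophils without WT 2, to -0.269 points in T cells without WT 1 and to 1.28 points in macrophages without TLR9-/- 1. In mesenchymal cells the 20 most abundant other genes, Col1a1 first, took 26.5% and 24.8% of UMIs in TLR9-/- and 13.2% and 11.7% in WT. With them out of the denominator, the shares were 24.1% and 26.6% in TLR9-/- and 26.8% and 29.7% in WT. This difference was smaller, without overlap, and the part of those genes in it was not tested. Mesenchymal cells numbered only 13 to 18 per library and macrophages 30 to 45.

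Immature neutrophils held 2 clusters. That led by Ltf, Ly6g and Retnlg had 4 immature and 4 mature neutrophil markers among its 10 leading genes, so its name is less sure. In the cluster led by Ngp and Camp alone, the share was 7.90% and 8.35% in TLR9-/- and 8.78% and 9.64% in WT, again without overlap. Its median share per cell was 5.63% and 6.14% in TLR9-/- and 5.47% and 7.69% in WT, with overlap. For the whole class that median was 6.35% and 7.23% in TLR9-/- and 7.07% and 9.16% in WT, also with overlap. In the cluster led by Ltf, Ly6g and Retnlg the share of summed UMIs was 16.9%, 15.2%, 15.7% and 15.7%, with overlap, and the TLR9-/- mean was 0.349 points higher. That cluster held 82 of 517 and 93 of 560 immature neutrophils in TLR9-/-, and 82 of 365 and 142 of 644 in WT. The part of this makeup in the difference of the class was not tested. With the 20 most abundant other genes out of the denominator, the immature neutrophils had 18.4%, 17.8%, 19.5% and 20.9%. For the neutrophil lineage, mature cells included, the shares were 7.85% and 6.80% in TLR9-/- and 8.57% and 8.99% in WT, a difference of -1.45 points. The lineage did not hold its cells in the same makeup. Immature neutrophils were 33.4% and 28.1% of its cells in TLR9-/- and 42.002% and 38.3% in WT, and mature neutrophils alone differed by 0.130 points, with overlap. With every library set to the same makeup of immature and mature neutrophils, an alternative chosen after seeing the data, the difference was -0.861 points.

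Single genes were tested in edgeR's quasi-likelihood test on UMIs summed per library, with Benjamini-Hochberg adjustment over all genes tested. No ribosomal protein gene was called at an adjusted p under 0.05 in all cells, where 85 of the 86 passed the filter on low counts and 0.268% of all genes were called. At an unadjusted p under 0.05 there were 3, namely Rpl13a, Rpl39l and Rpl3, which is 3.53% of the members tested against 17.1% of all genes. DESeq2 also called 0 members, and 6% of all genes. The smallest adjusted p was 0.244 (edgeR, Benjamini-Hochberg). The median log2 fold change was 0.01 over the members and -0.02 over all genes, with 44 members positive and 41 negative. Without overlap between genotypes, 14 members lay above in TLR9-/- (background 24.8% of all genes) and 7 below (26.3%), so both counts are smaller shares of the 85 than the background.

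No member was called in any single class or lineage either, by DESeq2 or by edgeR with the filter on low counts, all 4 libraries and no replicate block. At an unadjusted p under 0.05 in edgeR there were 0 to 2 members per fit, at most 2.41% of those tested, against 1.99% to 15.2% of all genes. The share of all genes called was 0.270% in the B lineage, 0.585% in the monocyte lineage and 0.489% in the neutrophil lineage. It was 0.645% in B-cell precursors, 0.624% in granulocyte and monocyte precursors, 0.529% in classical monocytes, 0.461% in immature neutrophils, 0.444% in the unnamed cluster and 0.405% in plasmacytoid dendritic cells. It was lower in T cells (0.234%), mature neutrophils (0.233%), B cells (0.225%), mesenchymal cells (0.217%), conventional dendritic cells (0.208%), basophils (0.177%), HSPC (0.137%), NK cells (0.0811%) and erythroid cells (0.0662%), and 0% in macrophages and plasma cells. Without TLR9-/- 1, between 1 and 5 members were called lower in several of these fits, with 5 of 84 in the neutrophil lineage, where 2.10% of all genes were called, and the genes were Rps27rt, Rpl36al, Rpl38, Rpl39 and Rps28. In such a fit the lone TLR9-/- library is assumed to vary like the WT pair, and elsewhere 0.994% to 1.68% of all genes were called. Without TLR9-/- 2, the log2 fold change of Rps29 was 0.76 in the neutrophil lineage and 0.75 in immature neutrophils. Without WT 1, that of Rpl39l was 4.76 in erythroid cells. At the rates of the fits with all 4 libraries, less than 1 called gene would stand among 81 to 84 genes, so the counts of 0 are near the background.

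The largest differences are given over all cells, where class makeup also differed between genotypes. The B lineage held 3174 of 10781 and 2180 of 8918 cells in TLR9-/-, and 5021 of 10573 and 4213 of 8895 in WT. The part of class makeup in the all-cells differences of single genes was not tested. The members with the largest positive differences were Rpl39l, Rplp0 and Rpl3. Rplp0, the stalk protein that anchors Rplp1 and Rplp2 and helps recruit elongation factors, had 5572 and 5525 CPM in TLR9-/- and 4439 and 3722 CPM in WT. Both TLR9-/- libraries were above both WT libraries, and the log2 fold change was 0.44 ± 0.18 (SE; adjusted p = 0.295 in edgeR's quasi-likelihood test with Benjamini-Hochberg adjustment). It was positive in 15 of 16 classes, from -0.07 in mesenchymal cells to 0.74 in mature neutrophils. The other stalk proteins did not share this. Rplp1 had 1741 and 2886 CPM in TLR9-/- and 1650 and 2931 CPM in WT, and Rplp2 had 2526, 2667, 2388 and 3094 CPM, with log2 fold changes of 0.01 and -0.08.

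Rpl3 had 1998 and 2285 CPM in TLR9-/- and 1675 and 1504 CPM in WT. Its libraries did not overlap, with a log2 fold change of 0.43 ± 0.16 (SE; adjusted p = 0.280 in edgeR, Benjamini-Hochberg), positive in 15 of 16 classes. Rpl39l had 35 and 11 UMIs in TLR9-/- against 2 and 1 in WT in erythroid cells, and 19 and 10 against 0 and 0 in granulocyte and monocyte precursors. Over all cells its log2 fold change was 1.79 ± 0.66 (SE; adjusted p = 0.271 in edgeR, Benjamini-Hochberg). Its UMIs are few, TLR9-/- 1 held 114 of the 189, and the log2 fold change was 0.72 without that library and 2.42 without TLR9-/- 2.

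The members with the largest negative differences were Rpl3l, Rps27rt and Rpl13a. Rpl13a, a large-subunit protein also known as part of an inhibitor of translation in interferon-treated myeloid cells, had 130 and 113 CPM in TLR9-/- and 161 and 162 CPM in WT. Its libraries did not overlap, and its log2 fold change was -0.41 ± 0.14 (SE; adjusted p = 0.244 in edgeR, Benjamini-Hochberg). It was negative in all 16 classes, from -0.86 in mesenchymal cells to -0.27 in plasmacytoid dendritic cells. The classes of a mouse share 1 library, so their number adds no replicates. The part of read assignment between Rpl13a and its pseudogenes was not tested. Rpl3l had 1.75 and 1.11 CPM in TLR9-/- and 2.76 and 2.13 CPM in WT, a log2 fold change of -0.77 ± 0.34 (SE; adjusted p = 0.323 in edgeR, Benjamini-Hochberg). B-cell precursors, with fewer cells in TLR9-/-, held 19 and 19 of its UMIs in TLR9-/- and 45 and 38 in WT. Rpl3l passed the filter in 3 classes, with log2 fold changes from -0.55 in classical monocytes to 0.02 in mature neutrophils. Rps27rt had 224 and 86.8 CPM in TLR9-/- and 292 and 129 CPM in WT, with overlap, and its log2 fold change of -0.44 turned to 0.27 without WT 1 and to 0.09 without TLR9-/- 2. Of the other paralogs, Rpl7l1 was at 55.0 and 62.5 CPM against 46.7 and 44.9 CPM (log2 fold change 0.36 ± 0.14, SE; adjusted p = 0.294 in edgeR, Benjamini-Hochberg), and Rpl22l1, Rpl36al and Rps27l had log2 fold changes of 0.09, -0.24 and -0.03.

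**Figure D5:**
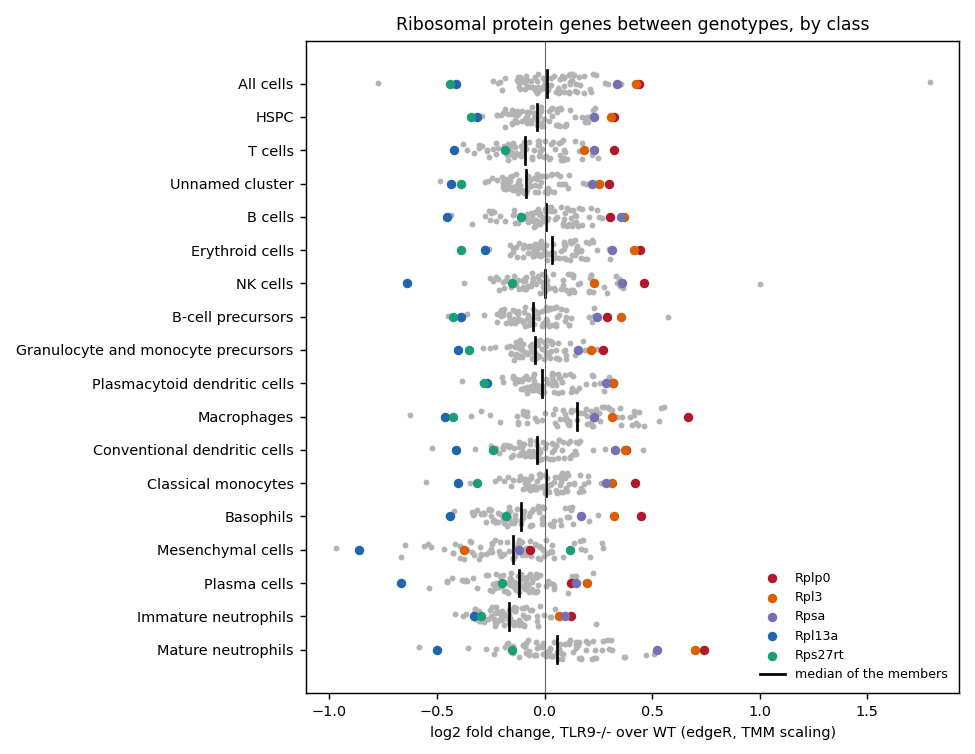
Log2 fold change of each ribosomal protein gene between TLR9-/- and WT (x axis, edgeR with TMM scaling) in all cells and in each class (y axis). Grey points are single genes, 5 genes are coloured, and a black bar marks the median of the members, which lies at 0.01 in all cells and -0.16 in immature neutrophils, and Rplp0 and Rpl13a stand on opposite sides in nearly every class.

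The members within 20 megabases of Tlr9 on chromosome 9 are Rpl29 (0.203 megabases away), Rps27rt (8.76), Rpsa (13.9) and Rpl14 (14.3). Rpl29 had 1680 and 1714 CPM in TLR9-/- and 1844 and 1760 CPM in WT, without overlap but with a log2 fold change of only -0.09 (adjusted p = 0.779 in edgeR, Benjamini-Hochberg). Rpsa, which doubles as a laminin receptor, had 5393 and 5608 CPM against 4575 and 4120 CPM, a log2 fold change of 0.34 ± 0.17 (SE; adjusted p = 0.372 in edgeR, Benjamini-Hochberg) without overlap. Rpl14 had 1569, 1902, 1344 and 1588 CPM, with overlap and a log2 fold change of 0.24 (adjusted p = 0.534 in edgeR, Benjamini-Hochberg).

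In the neutrophil lineage 77 of 84 tested members had negative log2 fold changes, with a median of -0.21, where the median of all genes was -0.01. As given above, this lineage held relatively fewer immature cells in TLR9-/-, and the part of that makeup in the single genes was not tested. The libraries did not overlap for 37 of them, all below in TLR9-/-, against 19.3% of all genes below and 18.3% above. Rps20, for example, had 1744 and 1658 CPM in TLR9-/- and 2064 and 2388 CPM in WT on the TMM scale (log2 fold change -0.39 ± 0.17, SE; adjusted p = 0.633 in edgeR, Benjamini-Hochberg). In immature neutrophils 75 of 83 were negative and 32 were below without overlap, against 17.2% of all genes. The part of their cluster makeup in these genes was not tested either. In mature neutrophils 53 of 84 were positive and 17 lay above without overlap (background 16.3%). Their median of 0.06 turned to -0.20 with the highest doublet scores left out and to -0.03 without TLR9-/- 1, so no direction is read from it. In macrophages 25 of 81 lay above (background 16%), and in basophils 23 of 83 below (background 17.3%). The counts were near the background in T cells, with 19 of 83 below (background 18%), and in mesenchymal cells, with 16 of 81 below (background 22.4%). Members rise and fall together within a library, so these counts are not independent observations. They draw on the same UMIs as the shares but on the TMM scale.

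The genotype differences were also compared between lineages in 1 fit with a term for lineage by genotype. No member was called in any of the 3 contrasts by edgeR's quasi-likelihood test, where 0.4% of all genes were called for monocyte minus B lineage, 0.258% for neutrophil minus B lineage and 0.208% for neutrophil minus monocyte lineage. At an unadjusted p under 0.05 there were 0, 3 and 7 of 84 members. The share of all genes at that threshold was not counted, so no result about the members is read from these counts. The 7 were Rpl36a, Rpl10a, Rpl32, Rps18, Rpl4, Rpl28 and Rpl14, all more negative in the neutrophil lineage, led by Rpl36a with a difference of -0.38 ± 0.13 (SE; adjusted p = 0.409, Benjamini-Hochberg).

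Many members differed between the libraries of a genotype in the same direction in TLR9-/- and in WT. The log2 ratio of library 2 to library 1 was computed in each genotype for 83 members, and the ratios of the 2 genotypes had r = 0.753 across genes, which are not independent. With transcript length, the ratio had r = 0.40 in TLR9-/- and 0.04 in WT. The log2 ratio of TLR9-/- to WT had r = -0.12 with length between the libraries numbered 1. Between those numbered 2 it had r = 0.56. The part of transcript length in the genotype differences of single members was not tested. Rps28 had 7194 and 2880 CPM in TLR9-/- and 4894 and 4217 CPM in WT, Rps29 had 6798, 2742, 4421 and 4154 CPM, and Rpl39 had 8114, 3633, 6878 and 4844 CPM. Others were high in both libraries numbered 2. Rps12, a small-subunit protein involved in cell competition, had 1419 and 2578 CPM in TLR9-/- and 1256 and 2667 CPM in WT, and Rps6, the substrate of S6 kinase, had 947, 1494, 825 and 1322 CPM. In Rps12 and Rps6 the libraries of each genotype differed from each other by more than the genotype means did. Whether the numbers mark experiments, and the part of library preparation, were not tested.

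Among the lists of related genes, no gene was called between genotypes in all cells by edgeR. Of 40 ribosome biogenesis genes, 7 had an unadjusted p under 0.05, of 19 TOP genes 1, of 78 mitochondrial ribosomal protein genes 4 and of 9 regulators of ribosome synthesis 3, where 17.1% of all genes did. The list medians of the log2 fold change were 0.20, 0.14, 0.10 and 0.01, beside -0.02 over all genes. Myc, which drives transcription of ribosomal protein and biogenesis genes, had 105 and 86.7 CPM in TLR9-/- and 54.7 and 45.5 CPM in WT on the TMM scale, a log2 fold change of 0.94 ± 0.18 (SE; adjusted p = 0.128 in edgeR, Benjamini-Hochberg). Myc did not pass the test and is not among the genes that the rule for named genes takes. The other regulators are not given singly here, and the list median was 0.01. The part of class makeup in the all-cells value of Myc, and any link to the other lists, was not tested. Fau and Rack1 had log2 fold changes of -0.11 and 0.05. Over all classes, 1 gene of these lists was called, Mrpl34 of the mitochondrial ribosome, which had 23 and 19.4 CPM in TLR9-/- and 73.5 and 72.4 CPM in WT in mature neutrophils (log2 fold change -1.79 ± 0.27, SE; adjusted p = 0.0226 in edgeR, Benjamini-Hochberg).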

How the data were processed

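Single-cell RNA libraries of 2 TLR9-/- and 2 WT mice were compared. Per the file headers and labels, the deposited values are UMI counts per gene and cell, made by the authors with Cell Ranger (matrix written by version 3.0.1) on mm10, with STAR and Seurat 2.3.4 named in the submitters' processing notes. Counts depend on how reads of near-identical copies were assigned.

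Cells with 200 to 10000 detected genes and at most 10% mitochondrial UMIs were kept (31210188 to 63958243 UMIs per library), and clustered without the members in scanpy 1.11.5 (2000 variable genes, 30 components, 15 neighbours, Leiden resolution 1). Clusters were named from marker lists. Doublets were left in, and the highest scores were left out in an alternative. UMIs were summed per library and class, so that each library is 1 replicate, and CPM are counts per 1000000 UMIs of those sums. Genotypes were compared with edgeR 4.0.16 (quasi-likelihood test, TMM scaling, filterByExpr, Benjamini-Hochberg adjustment over all genes of a fit, threshold 0.05), DESeq2 1.42.0 as an alternative, and exact permutation tests for shares. Background percentages are shares of all tested genes. The edgeR step was tested on simulated data. Wilson intervals cover counting error only.

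Named genes were the 3 most and 3 least abundant members, the paralogs and stalk, the 3 largest changes each way, the 5 widest and 5 narrowest spreads, and those near Tlr9. The members and lists were chosen with earlier results of these data known. Coordinates are from GENCODE M21 and start windows from RefSeq, both GRCm38. Protein sequences were not used here.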

Additional observations from a re-analysis of the deposited data

Results flagged for a closer look

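The difference of the ribosomal protein share of UMIs between genotypes had opposite signs in different classes, none of which could pass a test. TLR9-/- minus WT was -1.35 points in immature neutrophils, -1.26 points in basophils, -0.523 points in T cells and -5.85 points in mesenchymal cells, with both TLR9-/- libraries below both WT libraries. In macrophages it was 2.29 points, with both TLR9-/- libraries above. Each had an exact permutation p = 0.33, the smallest that 2 libraries against 2 can give. In T cells the direction turned with the median share per cell, and in immature neutrophils the libraries overlapped by that median. The difference between these classes was not tested. With the 20 most abundant other genes out of the denominator, mesenchymal cells had 24.1% and 26.6% in TLR9-/- and 26.8% and 29.7% in WT. That difference was smaller. Mesenchymal cells and macrophages rest on 13 to 45 cells per library.

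Rpl14, a large-subunit protein encoded 14.3 megabases from Tlr9, had log2 fold changes of 0.20 in the B lineage and 0.18 in the monocyte lineage, with both TLR9-/- libraries above both WT libraries, and of -0.16 in the neutrophil lineage, with both below. The difference of the log2 fold change was -0.29 ± 0.13 (SE) for neutrophil minus B lineage (adjusted p = 0.546 in edgeR's quasi-likelihood test, Benjamini-Hochberg) and -0.29 ± 0.13 for neutrophil minus monocyte lineage (adjusted p = 0.625), so neither passed.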

How the results depend on the processing

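For the counts of called members, 193 alternatives stayed at the main count and 17 moved. With the replicate block, 2 members were called in B-cell precursors (Rpl7l1 higher, Rps27rt lower), 2 in granulocyte and monocyte precursors (Rpl13a and Rps27rt lower), 1 in conventional dendritic cells and 1 in immature neutrophils (Rpl36al lower in both), and the block changed no other count. Under the block, 4.80%, 5.88%, 1.42% and 3.32% of all genes were called in these classes, and 8.21% in all cells, and the members were called at lower rates. Same-numbered libraries deviated together with r = 0.36 in all cells and -0.01 to 0.44 in the classes, but with 2 pairs and no label the numbers are not taken to mark experiments. Without the filter, Rpl39l was called in erythroid cells, on 35, 11, 2 and 1 UMIs. It was also called in granulocyte and monocyte precursors, on 19, 10, 0 and 0 UMIs. The share of all genes called in these fits is not given here, so no result about the members is read from them. Leaving out 1 library gave 0 to 1 called members in the monocyte lineage, B-cell precursors, basophils, erythroid cells, plasmacytoid dendritic cells and the unnamed cluster, 0 to 2 in immature and in mature neutrophils and 0 to 5 in the neutrophil lineage. Leaving out 1 library also turned the all-cells log2 fold change of Rps27rt (-1.26 to 0.27), Rplp1 (-0.40 to 0.49), Rplp2 (-0.25 to 0.12), Rpl22l1 (-0.17 to 0.32), Rpl36al (-0.60 to 0.061) and Rps27l (-0.12 to 0.077). With the median share per cell, the neutrophil lineage differed by -0.69 points, and by -0.861 points with its class makeup set equal. The median spread over classes was 0.84 in CPM and 0.22 within ribosomal protein UMIs. For shares in single classes, 20 alternatives moved and 201 did not. Among the former were -0.709 points (mean per cell) in immature neutrophils and -0.390 points (resolution 2) in basophils. The causes were not tested. Depth limits Rpl3l, Rpl39l and Rpl10l, which had at most 114 UMIs in each library.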
